A study of Mus musculus with 2 samples.

Results

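The cytosolic ribosomal protein genes are the genes whose platform symbol is Rpl or Rps followed by a number, with or without the letter a, x or l, together with Rplp0, Rplp1, Rplp2 and Rpsa, and without the S6 kinases (Rps6k). The rule reads names only and uses no measured value. It found 44 of 4331 named genes, 26 of the large subunit and 18 of the small subunit, each measured by a single probe. Rplp2 was not among them.

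The cells were CD5+ gamma delta T cells isolated from mouse spleens by magnetic sorting on CD5, followed by flow sorting. One population came from wildtype mice and the other from mice with the LAT3YF allele of the T cell receptor adaptor LAT, in which tyrosines are replaced by phenylalanine. The labels state no age, sex, strain or number of animals. Total RNA of both populations was hybridised together on 2 two-colour arrays, with the dyes reversed between the + polarity and the - polarity array. Nothing in the labels separates animals or RNA extracts between the arrays, so they were counted as 1 replicate, no test of the genotypes was made, and each SD below is the spread of the 2 arrays and covers technical error only.

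A cytosolic ribosome has a large subunit, which joins amino acids, and a small subunit, which reads the mRNA. Each ribosomal protein is needed in about the amount of the others, and the cell makes their mRNAs together. Most of these mRNAs begin with a run of pyrimidines, the TOP motif, through which the kinase mTOR and the protein LARP1 control their translation. T cells raise ribosome production when they leave rest, and loss of the large-subunit protein Rpl22 blocks alpha beta T cells while sparing gamma delta T cells. Rpl22 was not among the named genes measured here, and its paralog Rpl22l1 had a mean log10 ratio of -0.00198 ± 0.016.

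Values are log10 ratios of the populations, with the sign of the - polarity array turned. The labels do not state the numerator of the ratio, so positive and negative name the populations without saying which of them is LAT3YF. They state no base of the logarithm either, and folds assume base 10. In the deposited form the 2 columns correlated negatively over all probes (Pearson r = -0.301, across probes, which are not independent), as dye-reversed ratios do. Only ratios were analysed, so neither the level of a ribosomal mRNA nor the presence of the defining T cell markers could be read. Named probes measured Cd3d, Cd3e, Cd3g and Cd247 (-0.00738, 0.110, 0.0954 and -0.185) but neither Trdc nor the Trgc genes. The ratio of Cd5, on which the cells were sorted, was 0.614 ± 0.0077.

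Ribosomal protein transcripts differed little between the populations, and most lay slightly on the negative side. Their median log10 ratio was -0.0373, against 0.00230 over all 4331 named genes, and the members ran from -0.182 (Rpl3, 1.52-fold) to 0.0793 (Rps26, 1.20-fold). A gene was called when its mean reached a stated fold and its sign was the same on both arrays. None of the 44 was called at 2-fold, against 8.75% of all named genes, and 1 of 44, Rpl3, passed 1.5-fold, against 17.9%. Past a log10 size of 0.0969, a ratio of 5 to 4, 5 of 44 were called negative (11.4%), against 16.4% of all genes, and 0 positive, against 16.5%. Without regard to size, 26 members (59.1%) were negative on both arrays, against 29.3% of all genes, and 9 (20.5%) were positive on both, against 30.2%. The median size of a member's ratio was 1.12-fold, against 1.18-fold over all genes. The mean ratio of 39 of the 44 (88.6%) was under 0.0969 in size, as it was for 60.0% of all named genes. Intensities were not analysed, so the members were not set beside genes of like signal.

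**Figure D1:**
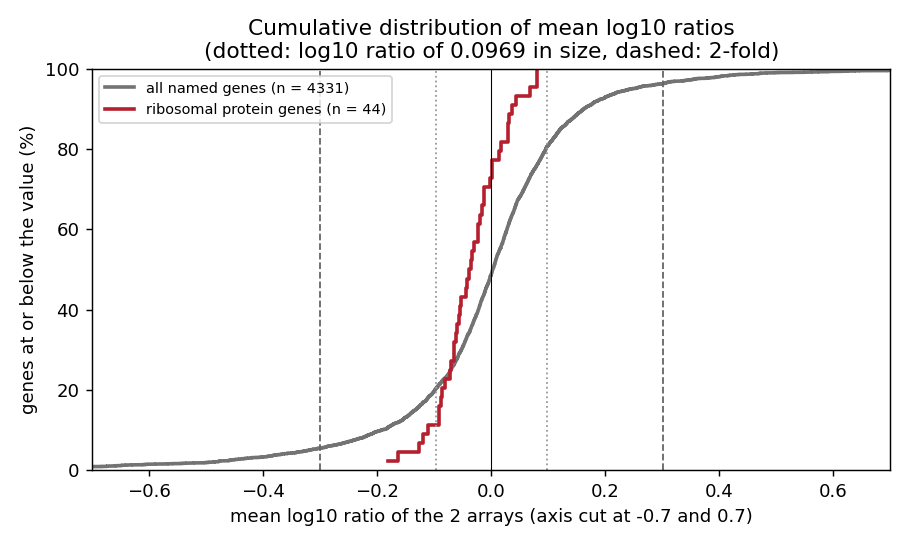
Cumulative share of genes (%) by mean log10 ratio of the 2 arrays, for the 44 ribosomal protein genes and all 4331 named genes. The ribosomal curve is steeper, lies to the left of the other at its median (-0.0373 against 0.00230) and ends before both 2-fold lines.

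In each array on its own the median of the members was -0.0553 (+ polarity) and -0.0307 (- polarity, turned). The count past 0.0969 on the negative side depended on the array. It was 15 with + polarity alone, where 24.0% of all genes passed, and 5 with - polarity alone, where 27.2% passed. The members were thus above the background on 1 array (34.1%) and below it on the other (11.4%). The 15 included Rplp0, Rplp1, Rps12, Rps28, Rps29 and Rpl7a, all positive on the turned - polarity array. The sign was the same on both arrays for 35 of the 44. Opposite signs were found in 20.5% of the members, against 39.9% of all named genes, which were not matched to the members in signal.

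The lowest values belonged to proteins of both subunits. Rpl3 (Entrez gene 27367), a large-subunit protein that reaches towards the peptidyl transferase centre, was at -0.238 (+ polarity) and -0.126 (- polarity, turned), a mean of -0.182 ± 0.079. Rps15a (Entrez gene 267019), a small-subunit protein found in all domains of life, was at -0.195 and -0.131, a mean of -0.163 ± 0.045 (1.46-fold). Rps4x, the small-subunit protein encoded on the X chromosome, was at -0.135 and -0.118, a mean of -0.126 ± 0.012 (1.34-fold). For all of these the arrays had the same sign, and the mean was larger than the SD between them.

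Rpl15, a large-subunit protein, was at -0.132 and -0.107, a mean of -0.120 ± 0.017. Rps7, a small-subunit protein that also binds the p53 regulator Mdm2, was at -0.162 and -0.0612, a mean of -0.111 ± 0.071. Together with the 3 genes before them these make up the 5 called past 0.0969. They stood between the 10.6th (Rpl3) and the 18.0th (Rps7) percentile of all named genes, so many other genes lay further to the negative side.

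The next 5 genes were below 0.0969 in size. Rps3, which lines the channel where mRNA enters the small subunit, was at -0.109 and -0.0737, a mean of -0.0913 ± 0.025. Rpl6 was at -0.0903 and -0.0917 and so nearly equal on the arrays. Rpl9, a large-subunit protein, was at -0.127 and -0.0502. Rpsa, a small-subunit protein also known as the laminin receptor, was at -0.103 and -0.0687. Rpl5, which carries the 5S ribosomal RNA into the large subunit and can bind Mdm2, was at -0.0959 and -0.0660, a mean of -0.0809 ± 0.021. Its partner Rpl11 was not among the named genes measured. All 10 of the lowest members were negative on both arrays, and their means ran from -0.182 to -0.0809.

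Fewer members, 12 of 44, had a mean on the positive side, and their ratios were small. Rps26, a small-subunit protein at the mRNA exit, was at 0.0837 and 0.0748, a mean of 0.0793 ± 0.0063. Rpl28, a large-subunit protein of eukaryotes, was at 0.0874 and 0.0710, a mean of 0.0792 ± 0.012. Rpl41, a very short basic peptide of the large subunit, was at 0.0998 and 0.0370, a mean of 0.0684 ± 0.044. Their means exceeded the spread between the arrays, as means of same-sign values do unless the values differ several-fold, and were still under 0.0969. Rpl19 was at 0.0414 and 0.0321. Rpl37 was at 0.119 (+ polarity) and -0.0335 (- polarity), so its sign was not the same on both.

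**Figure D2:**
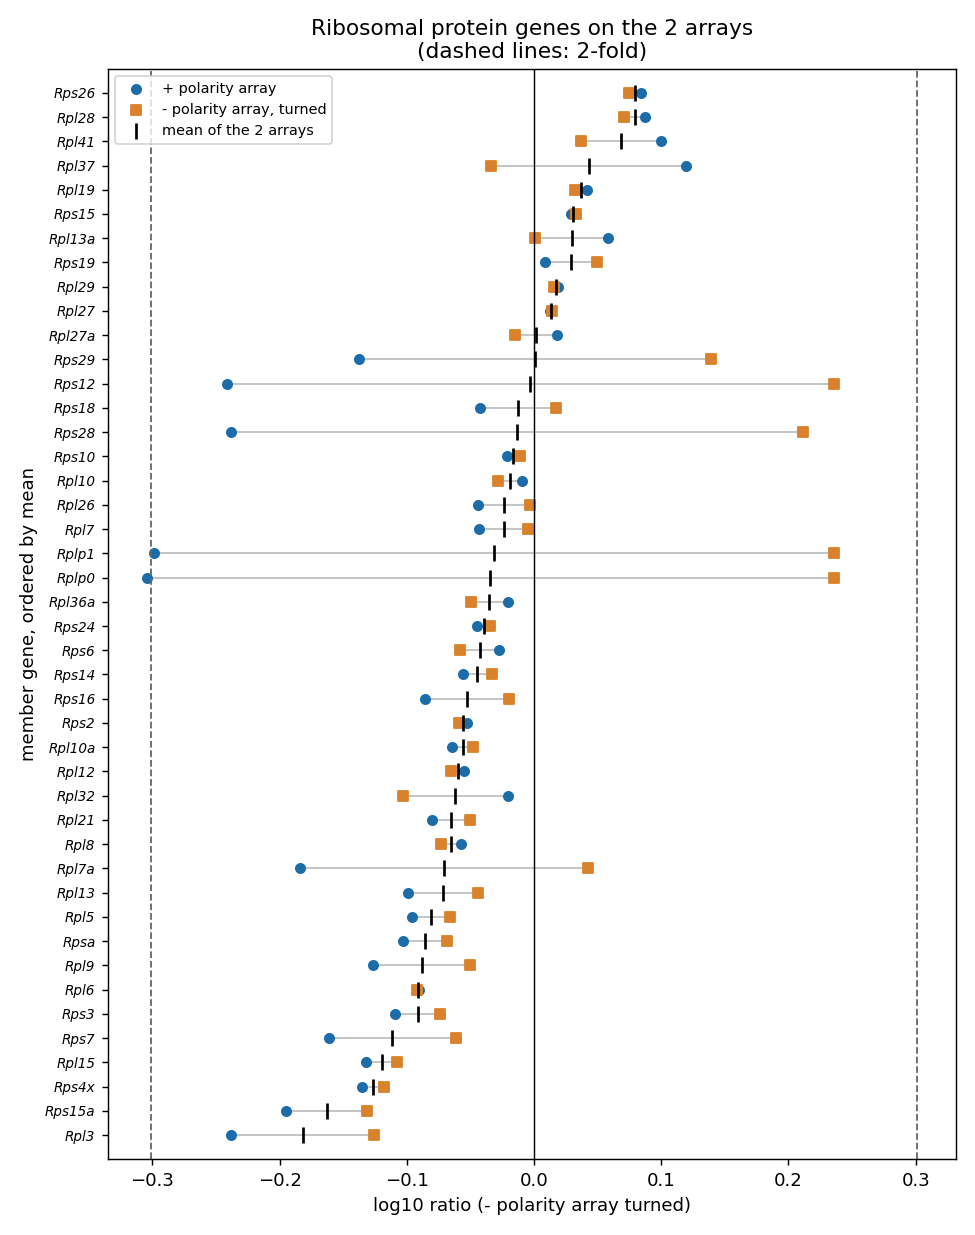
The 44 ribosomal protein genes ordered by mean log10 ratio, with the + polarity array (circles), the turned - polarity array (squares), their mean (bars) and 2-fold (dashed lines). Most pairs of points lie close together between -0.238 and 0.0998, while Rplp0, Rplp1, Rps12, Rps28, Rps29 and Rpl7a span 0 with wide gaps.

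A further 16 members were negative on both arrays, with means from -0.0717 (Rpl13) to -0.0162 (Rps10). Among them were Rps6, the protein that S6 kinases phosphorylate, at -0.0272 and -0.0580, and Rpl12, at the base of the stalk, at -0.0549 and -0.0651. Rpl10, which joins the large subunit late in its assembly, was at -0.00960 and -0.0285. The others of this group were Rpl8, Rpl21, Rpl32, Rpl10a, Rps2, Rps16, Rps14, Rps24, Rpl36a, Rpl7 and Rpl26. Another 5 were positive on both arrays, with means from 0.0131 (Rpl27) to 0.0310 (Rps15). They included Rps19, the gene most often mutated in Diamond-Blackfan anaemia, at 0.00879 and 0.0498, together with Rpl29 and Rpl13a.

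The promoters of members at both ends of this range are shown for the letters at their transcription starts. Below are 30 bases before and 15 bases after the annotated start of 3 low and 3 high members, from RefSeq (GRCm38.p6). Capitals mark a TOP-like tract, a C followed by at least 4 more pyrimidines with no purine between, where that C lies within 5 bases of the annotated start.
Rps15a (low, chr7:118116133-118116177, - strand): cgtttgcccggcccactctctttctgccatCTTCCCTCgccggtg
Rpl15 (low, chr14:18270972-18271016, - strand): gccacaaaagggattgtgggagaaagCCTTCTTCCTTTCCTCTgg
Rps4x (low, chrX:102189377-102189421, - strand): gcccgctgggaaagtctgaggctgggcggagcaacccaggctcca
Rps26 (high, chr10:128626492-128626536, - strand): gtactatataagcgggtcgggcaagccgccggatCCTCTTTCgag
Rpl28 (high, chr7:4792935-4792979, + strand): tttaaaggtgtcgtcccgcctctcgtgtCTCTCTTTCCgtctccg
Rpl41 (high, chr10:128549154-128549198, - strand): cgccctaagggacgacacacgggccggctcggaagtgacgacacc

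Tracts occurred at both ends of the range of ratios, in Rps15a and Rpl15 as in Rps26 and Rpl28, and Rps4x and Rpl41 had none in this window. Of the 44 members, 35 were found in the promoter table. Such a tract was found in 14 of the 35 (40.0%), against 24.1% of 3422 measured genes and 21.2% of all 27025 genes in the table. The distance of 5 bases was picked after 4 distances had been tried and their shares seen, and the share depends on it. With the C at the annotated start itself, whether or not the run reached further upstream, 6 of 35 members matched (17.1%), against 3.45% of measured genes. With the C within 2 bases it was 11 (31.4%), against 12.2%, and within 10 bases 20 (57.1%), against 37.7%. The members' share was above that of the measured genes at each of the 4 distances, by 4.97 times at 0 bases and 1.51 times at 10. A wider distance also counts the genes matched at the narrower ones, so the 4 are not separate results. The 4.97 rests on 6 members. At 5 bases, members with the tract had a median log10 ratio of -0.0278 (n = 14) and those without -0.0351 (n = 21), and the ranges overlapped nearly whole, from -0.163 to 0.0793 and from -0.126 to 0.0684. The letters CCGGAAG, the core bound by ETS-family factors, occurred on either strand of the 300-base promoter in 14 of 35 members (40.0%), against 14.6% of measured genes and 9.93% of all. Members with it had a median of -0.0198 (n = 14) and those without -0.0394 (n = 21). Here too the ranges overlapped nearly whole, from -0.120 to 0.0793 and from -0.163 to 0.0792. The letters AAGATGGC, a core bound by YY1, were found in 2 of 35 (5.71%), against 4.24% of measured genes. The annotated start can lie some bases from the one used in these cells, and a match describes letters only.

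Opposite signs on the arrays were found in 9 members (20.5%), against 39.9% of all named genes. Such signs make the dye component larger in size than the mean ratio by construction. In 6 of the 9 members the dye component passed 0.0969 in size. The dye component is the part of a ratio that changes sign when the - polarity array is turned, and equals the mean of the 2 deposited values. Rplp0 (Entrez gene 11837), the central protein of the stalk that recruits elongation factors, was at -0.304 and, on the turned array, 0.236, a mean of -0.0343 ± 0.38. Rplp1, which binds Rplp0 in the stalk, was at -0.298 and 0.236, a mean of -0.0312 ± 0.38. For both, the SD between the arrays was many times the mean, and no difference between the populations could be read.

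The small-subunit genes Rps12, Rps28 and Rps29 behaved alike. Rps12 was at -0.242 and 0.236, and Rps28 at -0.238 and 0.211. Rps29 was at -0.137 and 0.139. The large-subunit gene Rpl7a was at -0.184 and 0.0427. All 6 had a negative dye component past 0.0969 in size, from -0.113 (Rpl7a) to -0.270 (Rplp0). That is 13.6% of the members, against 11.6% of all named genes, and 0 members had a positive one, against 14.3%. A dye component of -0.2 or below was found in 4 members (9.09%) and in 4.94% of all named genes. The other members with opposite signs, Rps18, Rpl27a and Rpl37, had smaller dye components. Rps18 was at -0.0422 and 0.0172 and Rpl27a at 0.0181 and -0.0151, while the values of Rpl37 are given above. Most members had a smaller gap between the arrays, and over all 44 the median size of the dye component was 1.04-fold, against 1.10-fold over all genes.

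**Figure D3:**
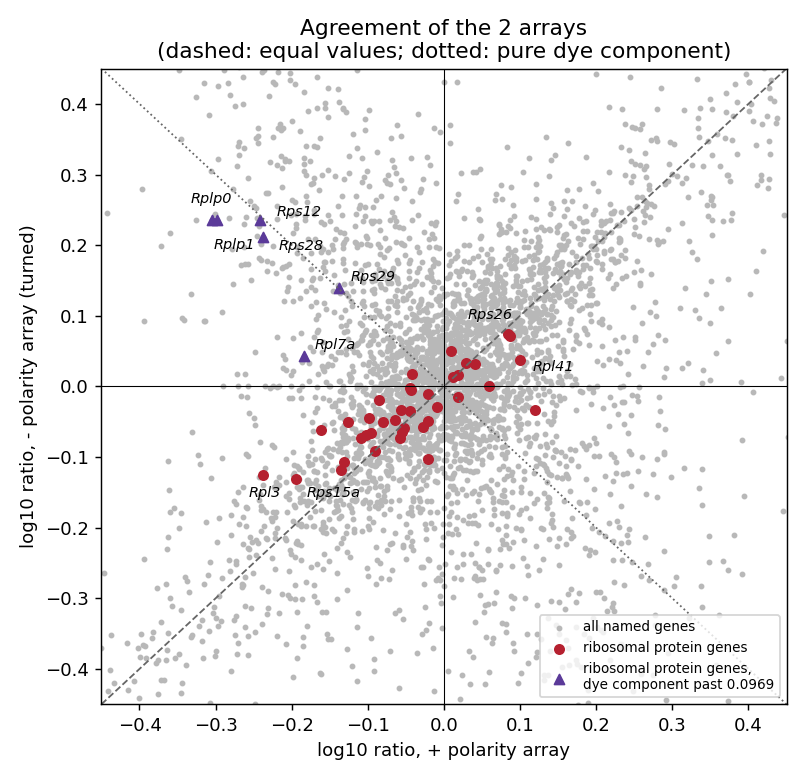
Log10 ratio on the + polarity array against the turned - polarity array, for all named genes (grey, axes limited to the central range) and the ribosomal protein genes, with triangles for a dye component past 0.0969 in size. The 6 triangles lie at the upper left, from Rpl7a to Rplp0, and most other members follow the line of equal values between Rpl3 and Rps26.

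Across the 44 members the 2 arrays had Pearson r = -0.268 and Spearman rho = 0.198, against 0.403 and 0.240 across all named genes. Without the 6 genes r was 0.792 and rho 0.799 (n = 38). Those 6 were set aside because their arrays differ, which raises r by construction, and genes on an array share its hybridisation, so these are descriptions. Setting them aside moved the median of the members from -0.0373 to -0.0435.

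The Rplp0 values were also held by other probes. The pair deposited for it, -0.3045 (+ polarity) and -0.2360 (- polarity, as deposited), was identical to that of the probe for Loxl2, a lysyl oxidase of the extracellular matrix, and to that of an unnamed probe. Of 8014 probes, 7 shared their pair of values with another, in 3 such pairs, and Rplp0 was the only member among them. Rplp1 shared the value of -0.2360 on the - polarity array but had -0.2985 on the other. What made these values equal was not tested. Without Rplp0 the median of the members was -0.0394.

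The subunits had like values. The 26 large-subunit genes had a median of -0.0347 and the 18 small-subunit genes -0.0410, with ranges of -0.182 to 0.0792 and -0.163 to 0.0793. On both arrays 15 of the 26 large-subunit genes and 11 of the 18 small-subunit genes were negative. With the spread of the arrays made equal, the large-subunit median was -0.0579. The small-subunit median was -0.0708 with + polarity alone and -0.0262 with - polarity alone. The 21 members with counterparts in all domains of life had a median of -0.0526, with 15 negative on both arrays and 2 positive. In the 23 members outside that group the median was -0.0312, with 11 negative and 7 positive on both arrays. The groups overlapped, from -0.182 to 0.0310 and from -0.126 to 0.0793, and no test between them was made.

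A pair of ribosomal proteins whose symbols fall outside the rule had values within the members' range. Rps3a1, a small-subunit protein, was at -0.153 and -0.0876, a mean of -0.120 ± 0.046. Fau, which encodes the small-subunit protein RPS30 fused to a ubiquitin-like peptide, was at 0.0354 and 0.0500, a mean of 0.0427 ± 0.010. Ribosomal protein genes have many processed pseudogenes, so a probe can share signal with a near-identical copy, and the source of each signal is uncertain to that extent.

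Companion genes of translation were taken from lists made for this purpose. Of 11 measured genes whose mRNAs also carry a TOP motif, 8 were negative on both arrays and 2 positive, with a median of -0.0598. Eef1a1, which brings aminoacyl-tRNA to the ribosome, was at -0.169 and -0.177, a mean of -0.173 ± 0.0054. Eif4b, a helper of mRNA unwinding, was at -0.161 and -0.101. The list's single gene past 2-fold was Vim, the intermediate filament protein vimentin, at 0.455 and 0.376 on the positive side. Of 12 measured initiation factor genes outside that list, 3 were negative and 6 positive on both arrays, with a median of 0.0147. They ran from Eif4a2, an RNA helicase, at -0.175 ± 0.084 to Eif4e, which binds the mRNA cap, at 0.152 ± 0.021.

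Genes that build ribosomes lay on both sides of 0. The median size of their ratios was 1.13-fold, against 1.12-fold for the ribosomal protein genes. Of 25 measured ribosome biogenesis genes 0 passed 2-fold, 7 were negative and 9 positive on both arrays, and the median was 0.00312. Wdr75, a nucleolar processing factor, was lowest at -0.161 ± 0.024, followed by the nucleolar protein gene Npm1 at -0.0996 ± 0.044. Eif6, which keeps the subunits apart until the large one is mature, was highest at 0.141 ± 0.028, beside the methyltransferase gene Emg1 at 0.139 ± 0.072. The 9 measured proteins of the mitochondrial ribosome, a separate machine, had a median of 0.0393, with 6 positive and 1 negative on both arrays, and ran from Mrpl9 at -0.154 to Mrpl47 at 0.115. Among 8 measured genes of the S6 kinases, the mTOR pathway and the Myc family, 0 passed 2-fold. Rps6ka3, which encodes a ribosomal S6 kinase, was at -0.183 ± 0.033 and Myc, a transcription factor that drives ribosome production, at -0.176 ± 0.023. On the positive side were Eif4ebp2, which restrains Eif4e, at 0.133 ± 0.027, and Rheb, the activator of mTOR, at 0.0836 ± 0.060.

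**Figure D4:**
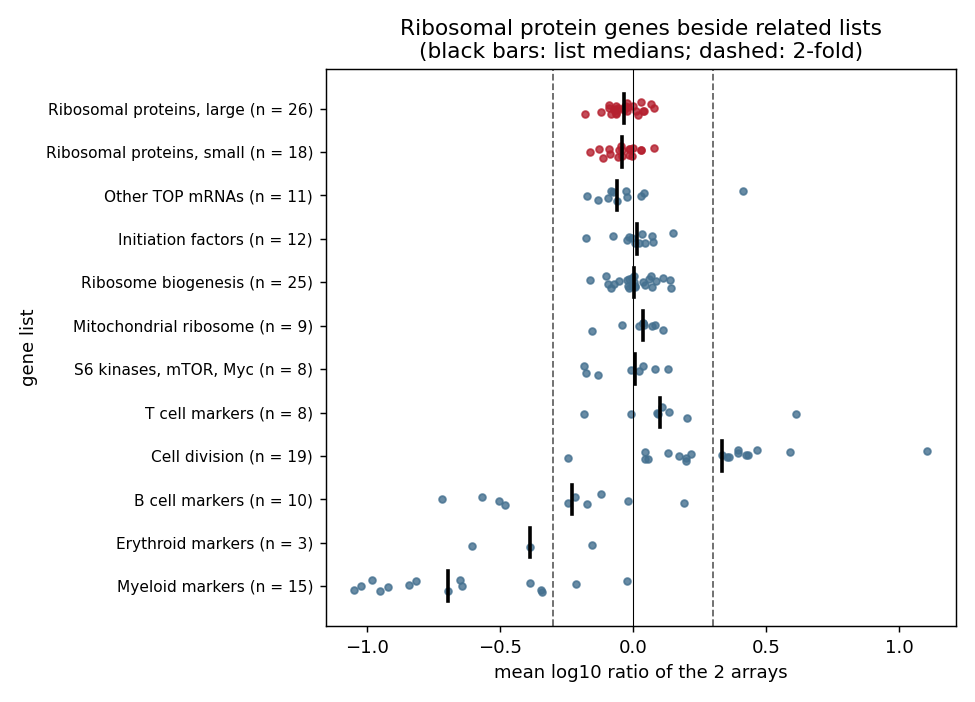
Mean log10 ratio of each gene (points) and list median (black bars) for the ribosomal protein genes by subunit, related lists and marker lists, with dashed lines at 2-fold. The ribosomal genes form the narrowest bands with medians of -0.0347 and -0.0410, while the medians of the cell division and myeloid lists lie at 0.336 and -0.697.

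Markers of other spleen cells differed far more than the ribosomal genes and mostly on the negative side. All 15 measured myeloid markers were negative on both arrays, 13 of them past 2-fold, with means from -1.05 (Adgre1) to -0.0221 (Itgam) and a median of -0.697. Of 10 measured B cell markers 8 were negative on both arrays, 4 past 2-fold, with means from -0.719 (Ighm) to 0.193 (Cd22) and a median of -0.230. The 3 erythroid markers had a median of -0.388, and Klf1 among them had opposite signs (0.513 and -0.820). In contrast 18 of 19 genes of cell division were positive on both arrays, 10 past 2-fold, with means from -0.245 (Mcm6) to 1.10 (Rrm2) and a median of 0.336. The 8 measured T cell markers had means from -0.185 (Cd247) to 0.614 (Cd5) and a median of 0.103. On both arrays 5 of them were positive and 2 negative. The part of these cells in the ribosomal ratios was not tested, and in RNA of mixed cells fewer cells of a type and less RNA per cell cannot be told apart.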

How the data were processed

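Each probe has 1 ratio of the channels for each array, deposited by the authors on a log scale of unstated base and read here as log10. The scanner, the normalization and the dyes are unstated in the labels. Medians of the deposited values were -0.00283 (+ polarity) and 0.00101 (- polarity).

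Of 8014 probes, 4654 had 1 gene in the platform annotation, 73 several and 3287 none listed. Only single-gene probes were used, and a gene was the mean of its probes. All 44 member gene identifiers were found in the RefSeq table under the same symbols. The - polarity array was turned by -1 and averaged with the other (Python 3.11.15, pandas 2.3.3). A call needed the same sign on both arrays and a stated fold, a rule of size. On simulated data without noise it called only genes changed past the stated fold, which follows from the rule itself. With the spread of these arrays some unchanged genes also passed the smaller size. Every member could be named, with both arrays given for the 10 lowest, the 5 highest and those with opposite signs. From companion lists came genes past 2-fold or the 2 largest on each side. Rules on both-array signs, dye component and 1.5-fold, the dye bound of -0.2 and the promoter motifs were added after values were seen. The tract distance of 5 bases was picked from 4 that were tried (0, 2, 5 and 10), with their shares known. Cd3d, Cd3e, Cd3g and Cd247 are given as a check. Members and lists were chosen with earlier results of these data known. Intensities were not analysed here, and precision is limited by the number of arrays.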

Additional observations from a re-analysis of the deposited data

How the results depend on the processing

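A count was held to have moved when it differed by more than 1.5 times, and a median when it moved by at least the SD of its 2 single-array values, a wide margin for the small subunit. By this measure 18 of 90 comparisons of 8 results with an alternative moved, 72 stayed within the margin and 0 reversed. Past 2-fold, single arrays gave 0 to 1 members (Rplp0, + polarity), and the share of all genes past 2-fold on 1 array is not given here. Past a log10 size of 0.0969 they gave 5 to 15 on the negative side (11.4% and 34.1% of the members, against 27.2% and 24.0% of all genes). On the positive side single arrays gave 2 to 5 (4.55% and 11.4% of the members, against 24.0% and 28.3% of all genes). They gave medians of -0.0553 to -0.0307 for all members, -0.0494 to -0.0310 for the large subunit, -0.0708 to -0.0262 for the small subunit, and a median size of 0.0501 to 0.0820. The 5 on the positive side with - polarity alone were Rplp0, Rplp1, Rps12, Rps28 and Rps29, all negative with + polarity. At 1.5-fold 1 member, Rpl3, passed. Read as log2, the deposited values gave 0 members past a log10 size of 0.0969 on the negative side, a median of -0.0112, a median size of 0.0146 and subunit medians of -0.0104 (large) and -0.0123 (small). Read as natural logs they gave 0, -0.0162, 0.0211, -0.0150 and -0.0178. Both readings shrink the ratio of every gene, so the count over all genes can only fall too. Its share under these readings is not given here, and the 0 is no result particular to the members. With a common spread of the arrays the large-subunit median was -0.0579. Median-centring removed 0.000765 on average and moved the median of the members to -0.0380, with the same counts of calls. The alternatives added after seeing the data, leaving out Rplp0 or the 6 genes with a large dye component or adding Rps3a1 and Fau, kept all 21 values within the margin. Many of these values could not move. Genes with opposite signs are never called, so leaving them out could not change a count of calls. Rps3a1 and Fau lie on either side of the medians of the members and the small subunit, so adding them could not move these. Leaving out Rplp0 could not move the small-subunit median. The median of the members was -0.0394 without Rplp0 and -0.0435 without the 6 genes, and the negative count was 6 with Rps3a1 and Fau. Of the distances for the TOP-like tract, also chosen after seeing the data, a C at the start itself gave 6 members in place of 14, and 2 and 10 bases gave 11 and 20. No probe with several symbols named a member, and each member had 1 probe, so the alternatives on probes gave the same values.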
